A study of Sus scrofa with 26 samples.

Results

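The genes described here are the glucocorticoid receptor gene NR3C1 and 7 genes that activate its hormone or respond to it, namely HSD11B1, FKBP5, TSC22D3, KLF9, ZBTB16, DUSP1 and SGK1. They were chosen by name, as every non-control probe that the array annotation assigns to them, which gave 35 probes for 8 of the 11571 genes named on the array. All 35 probes were well above background on all 26 arrays, so that none was lost to the filter on dim probes. NR3C1 had 5 probes, HSD11B1 7, FKBP5 5, TSC22D3 2, KLF9 11, ZBTB16 1, DUSP1 2 and SGK1 2. A probe whose description names TSC22D3 but whose gene name is given as GRAMD4 was left out.

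The genes lie on 6 chromosomes of the pig assembly Sscrofa11.1, as the RefSeq gene table gives them. NR3C1 spans chr2:144822937-144956451 and HSD11B1 chr9:133231451-133278396. FKBP5 spans chr7:31441764-31550704 and TSC22D3 chrX:88171325-88233583. KLF9 spans chr1:223723613-223747661 and SGK1, on the same chromosome, chr1:29625786-29753619. ZBTB16 spans chr9:41639536-41839254 and DUSP1 chr16:51457924-51461095.

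The RNA came from dorsal subcutaneous adipose tissue (SCAT) of 26 castrated male pigs, 1 animal per one-colour array. The pigs were Creole, Large White (LW) or their cross (F1). At thermoneutrality (TN, 24 °C) the arrays hold 4 LW, 4 F1 and 3 Creole animals, and each breed has 5 after heat stress (HS). The sample labels give the heat as 30 °C and the protocol as 32 °C for 5 days. The TN pigs were slaughtered before the temperature was raised, so temperature, day of slaughter and age cannot be told apart. Pens, slaughter days and parents are not in the labels, and the p-values treat the pigs as independent.

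Cortisol, the main glucocorticoid of the pig, crosses the cell membrane and binds the receptor, which waits in the cytoplasm in a complex with HSP90 and immunophilins. The bound receptor moves to the nucleus, where it raises the transcription of some genes and lowers that of others. In fat, the enzyme made from HSD11B1 regenerates active cortisol from inactive cortisone, so the tissue sets part of its own exposure. Glucocorticoids act on fat by promoting the maturation of preadipocytes, by shifting lipid storage and release, and by restraining inflammation. FKBP5, TSC22D3, KLF9, ZBTB16, DUSP1 and SGK1 are among the best known genes that rise after the hormone binds.

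The array reads each gene through probes of 60 bases. Some of the probes behind the results are shown here as the scanner files give them, 5′ to 3′, namely the 2 called probes of NR3C1, an overlapping pair of HSD11B1, the called probe of TSC22D3, 2 called probes of KLF9 and the single probe of ZBTB16. Each has an open forward reading frame, and the files do not give the place of these probes in the transcript. The first pair reads NR3C1 and the next pair reads HSD11B1, where capitals mark the 58 bases shared by both probes, so those probes are not independent of each other. The others read TSC22D3, KLF9 (2 probes) and ZBTB16.
NR3C1 A_72_P464460: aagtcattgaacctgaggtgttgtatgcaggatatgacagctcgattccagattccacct
NR3C1 A_72_P444091: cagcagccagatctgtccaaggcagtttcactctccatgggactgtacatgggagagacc
HSD11B1 A_72_P006061: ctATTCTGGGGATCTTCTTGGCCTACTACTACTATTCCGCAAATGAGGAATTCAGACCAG
HSD11B1 O9336: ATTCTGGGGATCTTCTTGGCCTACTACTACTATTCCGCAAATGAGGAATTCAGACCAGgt
TSC22D3 A_72_P310898: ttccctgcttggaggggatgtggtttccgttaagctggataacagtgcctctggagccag
KLF9 A_72_P502804: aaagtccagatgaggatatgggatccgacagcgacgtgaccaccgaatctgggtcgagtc
KLF9 A_72_P077411: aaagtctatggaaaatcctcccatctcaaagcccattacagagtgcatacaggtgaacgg
ZBTB16 O11027: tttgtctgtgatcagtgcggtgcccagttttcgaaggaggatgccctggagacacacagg

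Between HS and TN, SGK1 had the largest change of these genes, a signal change of -39.7% in HS on its brightest probe. Of the KLF9 probes 7 of 11 were called lower, and of the NR3C1 probes 2 of 5 were called higher. Levels are log2 of quantile-normalized intensity, changes are differences of log2 level (HS minus TN, with breed in the model), and a probe was called when its Benjamini-Hochberg adjusted p in limma, over all 44703 tested probes, was below 0.05. Of the 35 probes, 12 were called, against 12.2% of all tested probes. In the direction of HS, 2 were higher, with 5.17% of all probes called higher, and 10 were lower, with 7.02% called lower. These 12 probes read 4 genes, and 7 of them read KLF9 alone. Each gene is represented below by its brightest probe. On these 8 probes, only SGK1 was called, lower in HS. Over all 9968 named genes tested, 1 probe each, 4.9% were called higher and 7.66% lower. The changes of the 8 probes ran from -0.73 to 0.29 with a median of -0.19, where the median over all 9968 named genes tested was 0.00.

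**Figure D1:**
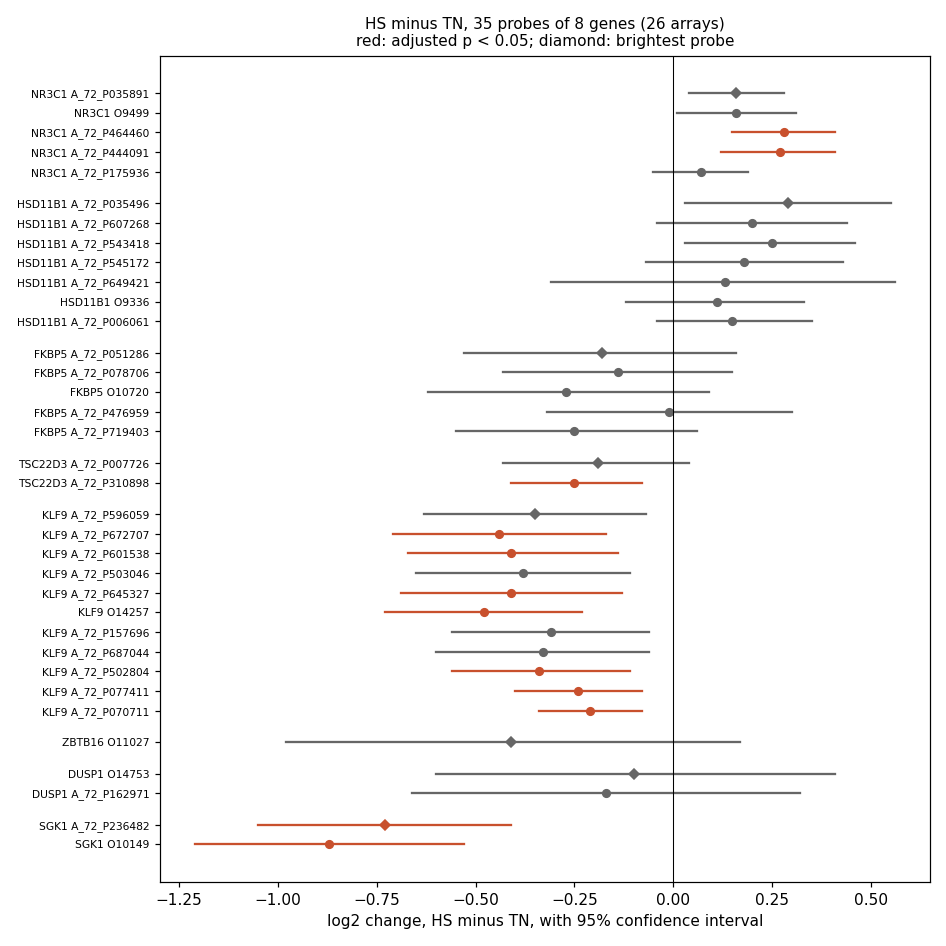
Change from TN to HS (log2, horizontal axis) of each of the 35 probes, with its 95% confidence interval, over 26 arrays. Red marks an adjusted p below 0.05 and diamonds mark the brightest probe of each gene. All probes of NR3C1 and HSD11B1 lie right of 0, and all 11 of KLF9 and both of SGK1 lie left of it.

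NR3C1 encodes the receptor itself. Its brightest probe (A_72_P035891) had a level of 10.89 ± 0.12 in the 11 TN arrays and of 11.06 ± 0.17 in the 15 HS arrays (mean ± SD), a change of 0.16 (SE 0.06), which was not called (limma adjusted p = 0.0643). Probe A_72_P464460, shown above, read 9.6, 9.52 and 9.73 in the Creole TN pigs and 9.73, 9.75, 9.51, 9.90 and 10.03 in the Creole HS pigs. In F1 it read 9.73, 9.65, 9.50 and 9.75 in TN and 10.11, 10.01, 10.08, 9.77 and 9.78 in HS. Every F1 pig in HS was thus above every F1 pig in TN. How many of all tested probes separate groups of this size in this way was not counted. In LW it read 9.59, 9.54, 9.73 and 9.84 in TN and 10.1, 10.12, 9.99, 10.17 and 9.78 in HS, and only the last of these HS values lay within the TN range. Over all breeds, 9 of the 15 HS arrays were above all 11 TN arrays, and 14 of 15 were above the TN mean of their breed. The change was 0.28 (SE 0.06, adjusted p = 0.00472 by limma), which is 21.4% more signal. This call ended with the red blood cell, fibroblast or Schwann cell marker score as a covariate (limma adjusted p = 0.0621, 0.0966 and 0.0639).

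The second NR3C1 probe shown above, A_72_P444091, changed by 0.27 (SE 0.07, adjusted p = 0.0143 by limma), again with 14 of 15 HS arrays above the TN mean of their breed. Its call ended with the same scores and with the adipocyte score. The 2 remaining probes, O9499 and A_72_P175936, changed by 0.16 and 0.07 and were not called (adjusted p = 0.151 and 0.449 by limma). O9499 gave 0.08 without the first Creole TN pig, and A_72_P175936 gave 0.04 without the second F1 HS pig and 0.20 with 75th percentile scaling. The annotation of A_72_P175936 places it in the 3′ UTR, and it was the dimmest of the 5, with a mean level of 6.26. All 5 probes had the same sign, and within each of the 5 slides the difference on A_72_P464460 was above 0, from 0.09 to 0.49. Whether the probes differed from each other in their change was not tested.

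HSD11B1, whose enzyme supplies active cortisol inside the fat cell, was higher in HS on 7 of 7 probes, and none was called. The changes ran from 0.11 to 0.29, and the adjusted p-values from 0.121 to 0.753. On the brightest probe, A_72_P035496, the 11 TN arrays had a lowest level of 11.75, a median of 12.19 and a highest of 12.62. The 15 HS arrays had a lowest level of 11.82, a median of 12.43 and a highest of 13.01. Of the HS arrays, 9 of 15 lay within the TN range and 6 above it, and the change was 0.29 with a 95% confidence interval from 0.03 to 0.55 (limma adjusted p = 0.134). The change was 0.07 with the fibroblast marker score as a covariate (adjusted p = 0.812) and 0.16 with the red blood cell score (adjusted p = 0.588). The 5 F1 pigs under HS were all above the mean of the 4 F1 pigs in TN, with a change of 0.58 (SE 0.21) in that breed against 0.07 (SE 0.23) in Creole and 0.19 (SE 0.21) in LW, and the interaction of breed with temperature was not called (adjusted p = 0.898). One probe of this gene, A_72_P649421, varied more than the others, over a range of 2.5 on 26 arrays against 0.92 to 1.27 on the other 6.

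FKBP5 encodes an immunophilin that lowers the affinity of the receptor for cortisol, and its induction closes a short feedback loop. Its brightest probe, A_72_P051286, had a level of 9.31 ± 0.41 in the 11 TN arrays and of 9.11 ± 0.49 in the 15 HS arrays (mean ± SD). The highest of all arrays was an F1 TN pig at 10.32 and the lowest an F1 HS pig at 8.29, and 11 of the 15 HS arrays lay within the TN range. The change was -0.18 with an interval from -0.53 to 0.16 (limma adjusted p = 0.522). It was -0.10 without the second F1 TN or the fifth F1 HS pig, and 0.02 with the Schwann cell marker score as a covariate (adjusted p = 0.981). All 5 probes had changes below 0, from -0.27 to -0.01, and none was called. The lower ends of their 95% intervals ran from -0.62 to -0.32.

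TSC22D3 encodes GILZ, the glucocorticoid-induced leucine zipper, which restrains inflammatory signalling. Its bright probe, A_72_P007726, ranged from 11.49 to 12.24 with a median of 11.78 in TN, and from 10.92 to 12.33 with a median of 11.68 in HS. The HS arrays spread on both sides of the TN arrays, 5 below and 1 above all of them, and the change of -0.19 (SE 0.11) was not called (limma adjusted p = 0.282). In LW, all 5 HS pigs were below the TN mean, with a change of -0.43 (SE 0.19) that was not called either (adjusted p = 0.249). The dim probe shown above, A_72_P310898, had 6.41 ± 0.20 in the 11 TN arrays and 6.15 ± 0.22 in the 15 HS arrays (mean ± SD), and it was called lower with a change of -0.25 (SE 0.08, limma adjusted p = 0.0424). Of the HS arrays, 12 of 15 were below the TN mean of their breed and 9 below all TN arrays. This call was lost in 17 of the 26 fits that left out 1 array (adjusted p from 0.0192 to 0.079). It was also lost in 8 of 17 other settings, among them 75th percentile scaling (-0.38, adjusted p = 0.12), normexp background correction (-0.17, adjusted p = 0.0933) and the Schwann cell score as a covariate (-0.15, adjusted p = 0.52).

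KLF9 encodes a zinc finger repressor that is a direct target of the receptor and takes part in adipocyte differentiation. All 11 probes were lower in HS, by -0.21 to -0.48, and 7 were called. On the brightest probe, A_72_P596059, the Creole pigs read 11.95, 12.06 and 11.96 in TN and 11.71, 11.44, 11.70, 11.43 and 12.25 in HS. The F1 pigs read 12.07, 12.55, 12.13 and 12.26 in TN and 12.41, 11.98, 11.60, 12.16 and 11.23 in HS. The LW pigs read 12.39, 12.05, 11.88 and 12.52 in TN and 11.56, 11.96, 12.67, 11.67 and 11.25 in HS. In each breed 4 of the 5 HS pigs were below the TN mean and 1 was above it, and the HS pig at 12.67 was the highest of all 26. The change on this probe was -0.35 (SE 0.14), and it was not called (limma adjusted p = 0.091).

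The probe with the largest change in KLF9, O14257, had 10.14 ± 0.26 in the 11 TN arrays and 9.66 ± 0.34 in the 15 HS arrays (mean ± SD). The change was -0.48 (SE 0.12, limma adjusted p = 0.0123), with 11 of 15 HS arrays below all TN arrays. The 2 probes shown above, A_72_P502804 and A_72_P077411, changed by -0.34 (SE 0.11) and -0.24 (SE 0.08), with adjusted p-values of 0.0419 and 0.0474. On the dimmest probe, A_72_P070711, every one of the 15 HS arrays was below the TN mean of its breed, with a change of -0.21 (SE 0.06, limma adjusted p = 0.0333). The probes are not independent, as 3 pairs of them share 37, 29 and 26 bases. The adjusted p-values of the 11 probes ran from 0.0123 to 0.106, on both sides of the threshold. The number called ran from 2 to 11 when single arrays were left out. It was 11 without the third LW HS pig, and 2 without the second F1 TN, the third F1 HS, the second LW TN, the fourth LW TN, the fourth LW HS or the third Creole TN pig. It was 3 or 4 without any of the other arrays, except 7 arrays whose removal left 5 to 7 probes called. The highest unadjusted p of the 11 probes was 0.0204. With the red blood cell or the Schwann cell marker score as a covariate, 0 of the 11 were called.

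ZBTB16 (also called PLZF) encodes a zinc finger repressor that rises strongly with glucocorticoids in many cell types. Its single probe ranged from 10 to 11.57 with a median of 10.45 in TN, and from 8.24 to 11.56 with a median of 10.06 in HS. The HS arrays were spread more widely than the TN arrays (SD 0.90 against 0.44), and 7 of 15 lay below all TN arrays, while none lay above them. The change was -0.41 (SE 0.28), with an interval from -0.98 to 0.17, and was not called (limma adjusted p = 0.372). It was -0.24 without the fifth F1 HS pig and ran from -0.64 to -0.14 over the other settings, with no call in any. Its spread within groups, an SD of 0.778, was at percentile 98.5 of all tested probes, whose median SD was 0.184.

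DUSP1 encodes a phosphatase that switches off MAP kinases, and it is both a glucocorticoid target and an immediate early gene that responds within minutes to other stimuli. Its brightest probe, O14753, read 13.44 ± 0.71 in the 11 TN arrays and 13.34 ± 0.58 in the 15 HS arrays (mean ± SD), a change of -0.10 (SE 0.25, limma adjusted p = 0.844). This value lay between -0.30, without the fourth LW TN pig, and -0.01, without the second Creole TN pig. The direction differed among breeds, since 4 of 5 HS pigs were below the TN mean in Creole and in F1, and 5 of 5 were above it in LW. The fitted changes were -0.66 (SE 0.42) in Creole, -0.37 (SE 0.39) in F1 and 0.66 (SE 0.39) in LW. With slide as a fixed block they were -0.44, -0.17 and 0.20. The interaction had an unadjusted p of 0.065 and an adjusted p of 0.897 in limma, and so was not called. The LW value leans on the fourth LW TN pig, whose level of 11.47 was the lowest of all 26 (the other 3 LW TN pigs had 13.34 to 13.77), and the change in LW without that pig was 0.14. The second probe, A_72_P162971, gave changes of -0.17 (SE 0.24) over all breeds and 0.51 (SE 0.38) in LW.

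SGK1 encodes a kinase that glucocorticoids and insulin activate at different levels, and that acts on ion transport and adipocyte differentiation. On its brightest probe, A_72_P236482, the Creole pigs read 9.88, 10.50 and 9.71 in TN and 8.86, 9.31, 9.61, 9.26 and 9.10 in HS. The F1 pigs read 10.73, 10.89, 9.86 and 10 in TN and 9.18, 9.58, 9.32, 9.35 and 9.52 in HS. The LW pigs read 9.56, 10.65, 10.29 and 9.29 in TN and 9.64, 9.47, 9.44, 9 and 10.08 in HS. In Creole and in F1 the TN and HS pigs did not overlap, and in LW they did. The share of all tested probes without overlap in such small groups was not counted. The change was -0.73 (SE 0.15), which is a change of -39.7% in signal, with an adjusted p of 0.00314 in limma and 14 of 15 HS arrays below the TN mean of their breed.

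The other probe of SGK1, O10149, gave a change of -0.87 (SE 0.16, limma adjusted p = 0.00139), with 15 of 15 HS arrays below the TN mean of their breed and 10 below all 11 TN arrays. Both probes were lower in HS within each of the 5 slides, by -1.44 to -0.47 on the first and by -1.24 to -0.55 on the second. Both remained called in each of the 26 fits without 1 array, with adjusted p-values up to 0.00798 and 0.00358. Both calls ended with the Schwann cell marker score as a covariate, where the changes were still -0.73 and -0.87 (adjusted p = 0.0908 and 0.063), and that of the first probe also with the fibroblast score (-0.54, adjusted p = 0.0804). The share of all probes called in these fits with a score was not counted. In LW the probes gave unequal values, -0.42 (SE 0.26) and -1.11 (SE 0.28), and only the second was called (adjusted p = 0.0432). The first was -0.19 without the second LW TN pig and -0.64 without the fourth.

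**Figure D2:**
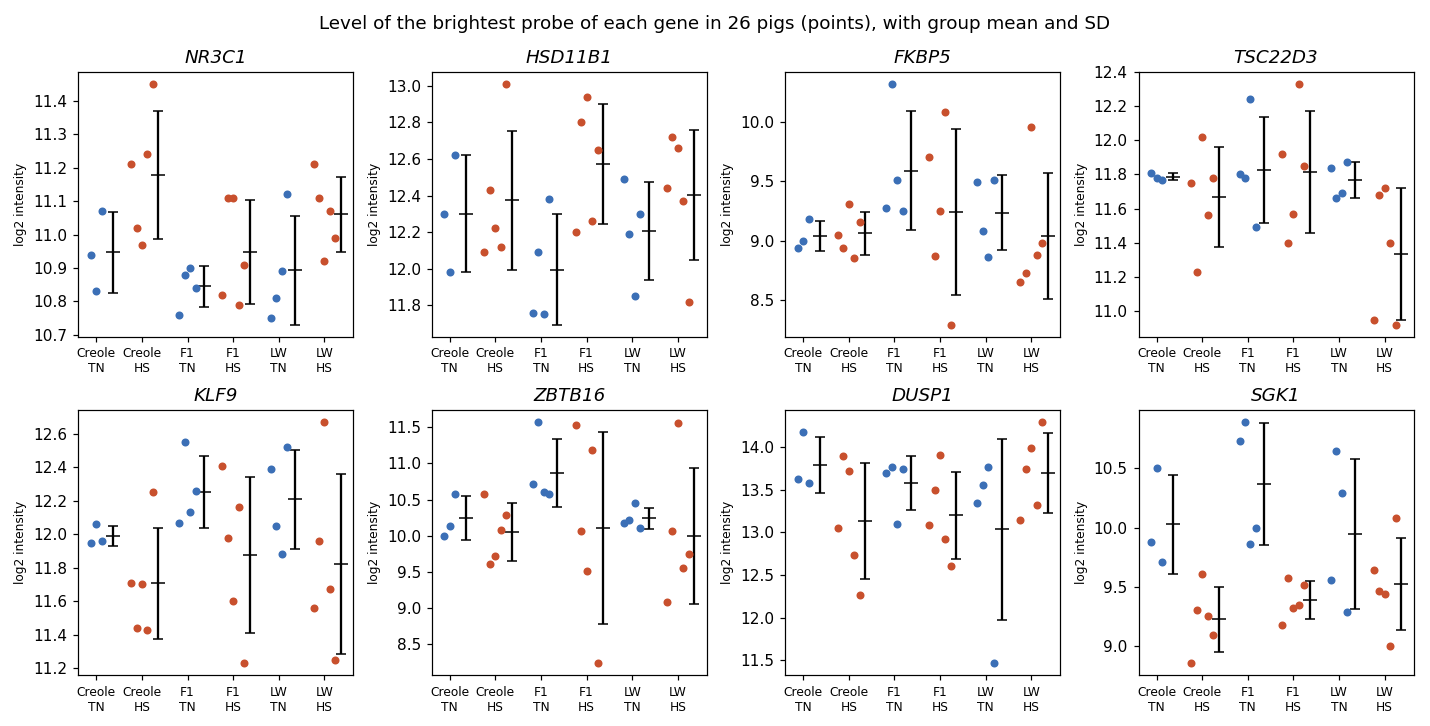
Level (log2 intensity, vertical axis) of the brightest probe of each gene in 26 pigs, by breed and temperature (blue TN, red HS), with the group mean and SD beside the points. SGK1 separates TN from HS in Creole and F1, while the TN and HS ranges of each other gene overlap in every breed. The share of all probes that separate in this way was not counted.

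The order of the 6 group means was also read gene by gene on the brightest probe. For SGK1 all 3 TN means (10.37 in F1, 10.03 in Creole and 9.95 in LW) lay above all 3 HS means (9.52 in LW, 9.39 in F1 and 9.23 in Creole). With SDs of 0.16 to 0.63, neighbours in this order did not differ beyond their spread. KLF9 had the same split, with TN means of 12.25 in F1, 12.21 in LW and 11.99 in Creole above HS means of 11.88, 11.82 and 11.71 in F1, LW and Creole. For DUSP1 the lowest mean, 13.04 ± 1.06 (SD, n = 4), and the second highest, 13.69 ± 0.47 (SD, n = 5), both belonged to LW. For TSC22D3 the LW HS group stood lowest, at 11.34 ± 0.39 (SD, n = 5), and the other 5 means lay between 11.67 and 11.83. For HSD11B1 the HS means (12.57, 12.40 and 12.37 in F1, LW and Creole) were above the TN means (12.30 in Creole, 12.21 in LW and 12 in F1), with SDs of 0.27 to 0.38. The group means of FKBP5 ran from 9.04 to 9.59, those of ZBTB16 from 10 to 10.87 and those of NR3C1 from 10.85 to 11.18.

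Signs of other cells moved with temperature, and they are given here because bulk tissue cannot separate a lower share of a cell type from less RNA per cell. The score of the Schwann cell list, with 2 of 5 measured genes called higher and none lower, was higher in HS by 0.45 (from -0.70 to 0.17 in TN and from -0.25 to 0.74 in HS). That of the fibroblast and preadipocyte list, with 4 of 9 genes called higher, was higher by 0.26 (from -0.86 to 0.26 in TN and from -0.23 to 0.54 in HS). The red blood cell score changed by -0.30 (from -0.16 to 0.60 in TN and from -0.61 to 0.44 in HS), with HBB alone called among 4 genes (-0.85, limma adjusted p = 0.011). Of the others AHSP had -0.47, SLC4A1 0.06 and ALAS2 0.04, so the list did not move as a whole. The called fibroblast genes were COL1A2 (0.42), DCN (0.35), COL1A1 (0.31) and COL3A1 (0.25). The genes of these 3 lists were well above background on all 26 arrays, except ALAS2 on 24. These 3 of 12 lists passed an exact two-sided permutation test within breeds after adjustment over the 12 lists (adjusted p = 0.00226, 0.0309 and 0.0309), whereas the adipocyte score did not (-0.08, adjusted p = 0.303). Of the 9 adipocyte genes, CIDEA was called lower (-0.43, limma adjusted p = 0.000234) and ADIPOQ higher (0.16, adjusted p = 0.0384), and of the endothelial genes CDH5 was called lower (-0.23, adjusted p = 0.0254). With 75th percentile scaling the fibroblast and red blood cell lists did not pass (adjusted permutation p = 0.0703 and 0.0901). The remaining 8 lists (macrophage, endothelial, T cell, B cell, neutrophil, skeletal muscle, keratinocyte and adrenal cortex) gave adjusted p-values from 0.326 to 0.944. The adipocyte genes FABP4 and ADIPOQ had mean levels of 18.36 and 17.42.

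With the fibroblast score as a covariate the change of SGK1 on its brightest probe was -0.54 (limma adjusted p = 0.0804), and with the Schwann cell score it was -0.73 (adjusted p = 0.0908). The NR3C1 probe A_72_P464460 gave 0.21 and 0.32 in these fits (adjusted p = 0.0966 and 0.0639), and 0.25 with the red blood cell score (adjusted p = 0.0621). The other NR3C1 probe, A_72_P444091, gave 0.27 and 0.35 in the fits with the fibroblast and the Schwann cell score, 0.23 with the red blood cell score and 0.24 with the adipocyte score, and it was called in none of these 4 (adjusted p = 0.0844, 0.0747, 0.13 and 0.0546). No KLF9 probe was called with the Schwann cell or the red blood cell score, against 7 without a score, while the change on the brightest KLF9 probe was -0.26 and -0.40 in these fits, against -0.35 without a score. The fits with the fibroblast or Schwann cell score were added after the data were seen. These scores themselves differ between TN and HS, and the part of other cell types in the changes was not tested. For fits with a score, the share of all probes called was not counted, so lost calls cannot be set against it.

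Within single breeds 1 of the 35 probes was called. In Creole 0.0716% of all probes were called and none of the 35. An unadjusted p below 0.05 was found for 5 of the 35 and for 4975 of all 44703 probes. In F1 0.421% of all probes were called and none of the 35, where SGK1 came closest with a change of -0.98 (SE 0.26, limma adjusted p = 0.0813). Unadjusted p-values below 0.05 were found there for 10 of the 35 and for 7133 of all probes. In LW 1.5% of all probes were called, and among the 35 the SGK1 probe O10149. Unadjusted p-values below 0.05 were found in LW for 7 of the 35 and for 7477 of all probes. The interaction between breed and temperature was called for 0.00224% of all probes (1 probe) and for none of the 35 (lowest adjusted p 0.897 in limma). Its unadjusted p was below 0.05 for 0 of the 35 and for 2336 of all probes.

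**Figure D3:**
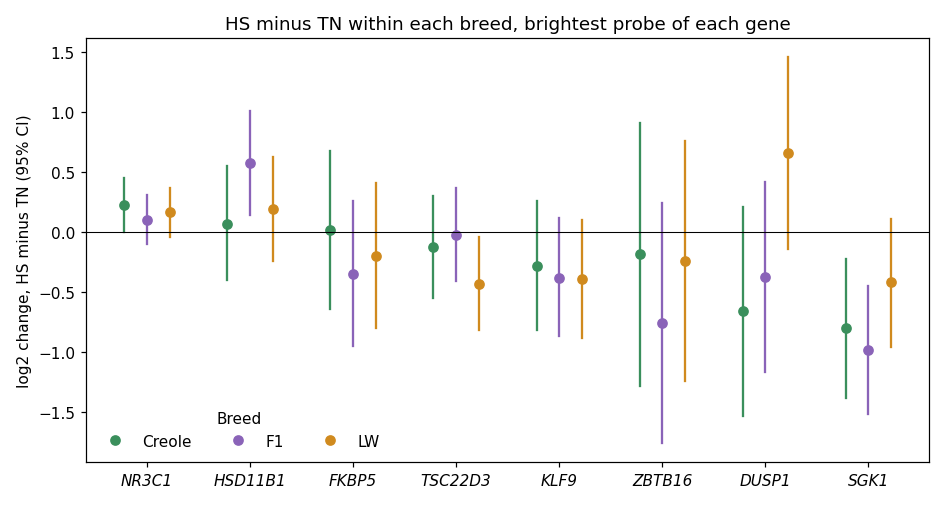
Change from TN to HS (log2, vertical axis) within Creole, F1 and LW on the brightest probe of each gene, with 95% confidence intervals from the model with 6 group means. SGK1 and KLF9 lie below 0 in all breeds, DUSP1 lies below 0 in Creole and F1 and above 0 in LW, and none of these changes was called.

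The breeds were next compared with temperature in the model. LW differed from Creole at 14.3% of all probes, and none of the 35 probes was called by limma. An unadjusted p below 0.05 was found for 3 of the 35 and for 12985 of all 44703 probes. The changes of the 8 brightest probes (LW minus Creole) ran from -0.20 to 0.16. The 95% intervals were narrow for NR3C1 (-0.24 to 0.05) and wide for ZBTB16 (-0.75 to 0.66) and DUSP1 (-0.61 to 0.64). F1 differed from the mid-parent value, the mean of LW and Creole, at 0.00671% of all probes (3 probes) and at none of the 35. Here the unadjusted p was below 0.05 for 1 of the 35 and for 3884 of all probes. NR3C1 came closest, at -0.13 (SE 0.06, unadjusted p = 0.0369, limma adjusted p = 0.536).

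The levels of some of these genes varied together among pigs of the same breed and temperature group. Pens, slaughter days and parents within a group are not in the labels and could not be taken out. Levels on the brightest probes were centred on the 6 group means, and the 28 pairs were compared over 26 arrays by permutation within groups (two-sided, 100000 resamples). FKBP5, KLF9 and ZBTB16 went together in all 3 pairs. Pearson's r was 0.804 between FKBP5 and ZBTB16 (permutation p = 0.00137, adjusted 0.0128), 0.775 between KLF9 and ZBTB16 (p = 0.00055, adjusted 0.00896) and 0.752 between FKBP5 and KLF9 (p = 0.00064, adjusted 0.00896). Spearman's rho was lower, at 0.537, 0.628 and 0.667, with permutation p-values of 0.0189, 0.00415 and 0.00251 that did not pass after adjustment over the 28 pairs (0.0882, 0.0581 and 0.0581). Without the 2 arrays farthest from the median of the first gene, r was 0.705, 0.626 and 0.672, and with slide also taken out it was 0.870, 0.824 and 0.816.

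The pigs at the ends of this relation were the same for several genes. The fifth F1 HS pig was the lowest of all 26 for FKBP5 (8.29), KLF9 (11.23) and ZBTB16 (8.24). The second F1 TN pig was the highest for FKBP5 (10.32), ZBTB16 (11.57) and SGK1 (10.89), and the third LW HS pig was the highest for KLF9 (12.67), with ZBTB16 at 11.56 there. For KLF9 and ZBTB16, r was 0.845 among the 15 HS arrays and 0.221 among the 11 TN arrays, a difference that was not tested. For FKBP5 with KLF9 the values were 0.742 and 0.832, and for FKBP5 with ZBTB16 they were 0.865 and 0.626.

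DUSP1 and SGK1 formed the only other pair that passed by r, at 0.580 (permutation p = 0.0051, adjusted 0.0357), with a rho of 0.504 (p = 0.0132, adjusted 0.0832) and 0.495 without 2 arrays. TSC22D3 had r of 0.502 with KLF9, 0.477 with FKBP5 and 0.409 with ZBTB16, with adjusted permutation p-values of 0.17, 0.21 and 0.27. Without 2 arrays r was 0.459, 0.249 and 0.303 for these pairs. SGK1 had r of -0.115, -0.297 and -0.0736 with FKBP5, KLF9 and ZBTB16, with adjusted permutation p-values of 0.765, 0.27 and 0.765. NR3C1 had a negative r with DUSP1 (-0.547, adjusted permutation p = 0.121) and a positive r with HSD11B1 (0.478, adjusted permutation p = 0.148), and without 2 arrays r was -0.311 and 0.354.

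**Figure D4:**
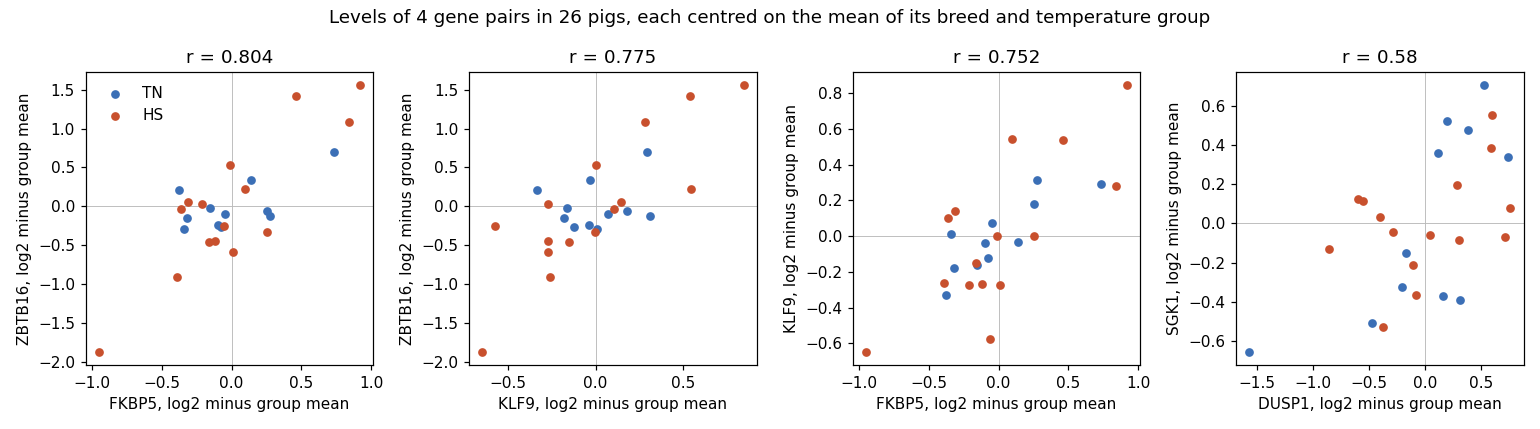
Levels of the 4 pairs that passed by Pearson's r (log2 minus the mean of the pig's breed and temperature group, both axes) in 26 pigs, blue TN and red HS. ZBTB16 spans the widest range, and the HS pig at the lower left of the first 3 panels is the fifth F1 HS pig.

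Among the other 9960 named genes, 1 probe each, the profiles most like those of the 8 genes over the 26 uncentred arrays were the following, given as a description with no test because they are the highest of all. For FKBP5 the first was PER1 (r = 0.860), a clock gene that is also a glucocorticoid target, and the next PPTC7 (0.659). PER1 was the first for ZBTB16 as well (0.752), ahead of ASB9 (0.641). Like FKBP5 and ZBTB16, PER1 was lowest in the fifth F1 HS pig (13.41) and highest in the second F1 TN pig (15.27). For DUSP1 the first was FOS (r = 0.902) and the next DUSP6 (0.891), both induced early by MAP kinase signalling, and both lowest in the fourth LW TN pig (11.65 and 10.94), in which DUSP1 was lowest.

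For TSC22D3 the most alike profiles were CDKN1A (r = 0.763), a cell cycle inhibitor that glucocorticoids can induce, and TIMM8A (0.733). For SGK1 they were MMD (0.861) and STARD4 (0.795), a carrier of cholesterol, and for KLF9 SLC43A2 (0.660) and GPR143 (0.651). NR3C1 went with TRERF1 (0.793) and FZD1 (0.780), and HSD11B1 with DDR1 (0.719) and KRT7 (0.707). Over uncentred arrays, a temperature effect common to both genes adds to r.

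The variation among pigs differed widely between these genes. Within groups the SD of the brightest probe was 0.143 for NR3C1, lower than that of most tested probes (percentile 25.1), and 0.778 for ZBTB16 (percentile 98.5). DUSP1 (0.618, percentile 97.4), FKBP5 (0.466, percentile 94.5), SGK1 (0.410, percentile 92.3), KLF9 (0.379, percentile 90.4), HSD11B1 (0.332, percentile 86.7) and TSC22D3 (0.297, percentile 82.4) lay between them. From the lowest to the highest pig, the signal spanned 10-fold for ZBTB16, 7.07-fold for DUSP1, 4.10-fold for FKBP5, 4.08-fold for SGK1 and 1.62-fold for NR3C1.

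Other genes of the pathway, in 5 lists, were read on 1 probe per gene, where 4.9% of the 9968 named genes were called higher in HS and 7.66% lower. Of the genes that make, bind or clear the hormone, 7 of 11 were tested and none was called. ABCB1, a pump that exports cortisol, had the smallest p of them with a change of 0.43 (SE 0.15, limma adjusted p = 0.0678), while NR3C2, the mineralocorticoid receptor, changed by 0.14 (SE 0.15), HSD11B2, which inactivates cortisol, by -0.02 (SE 0.07) and the cortisol carrier SERPINA6 by -0.08 (SE 0.12). The median of the list was -0.02. Of the receptor chaperones and cofactors, 16 of 18 were tested, and NCOA2, a coactivator of the receptor, was the only one called, higher by 0.24 (SE 0.05, limma adjusted p = 0.00277). HSP90AA1 changed by 0.27 (SE 0.12, adjusted p = 0.133) and FKBP4, the immunophilin that favours the transport of the receptor, by 0.22 (SE 0.12, adjusted p = 0.248), and the list median was 0.00.

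Of the other induced targets, 30 of 34 were tested, 2 rose, 2 fell and the list median was -0.10. DDIT4, an inhibitor of mTORC1 signalling, fell by 0.60 on the log2 scale (SE 0.18, limma adjusted p = 0.028), and MYC fell by 0.48 (SE 0.14, adjusted p = 0.0272). MYC stands in this list although glucocorticoids are known to repress it in lymphoid cells. RGS2, a brake on G protein signalling, rose by 0.40 (SE 0.12, adjusted p = 0.0225), and FOXO3 by 0.21 (SE 0.05, adjusted p = 0.015). Among the members not called were CDKN1A at -0.62 (SE 0.27), HIF3A at 0.57 (SE 0.19) and PDK4 at -0.49 (SE 0.35), with adjusted p-values of 0.142, 0.0544 and 0.396. PER1 itself changed by -0.06 (SE 0.14) and KLF15 by 0.02 (SE 0.18). Fits with marker scores as covariates were not made for FOXO3. DDIT4 was not called with the red blood cell (-0.54), adipocyte (-0.47), fibroblast (-0.61) or Schwann cell score (-0.62), with adjusted p-values of 0.161, 0.115, 0.121 and 0.21. RGS2 was not called with the red blood cell (0.39), adipocyte (0.38) or Schwann cell score (0.21), nor with the mean of its probes (0.29), with adjusted p-values of 0.12, 0.069, 0.505 and 0.0645. MYC was not called with the fibroblast (-0.56) or Schwann cell score (-0.62), with adjusted p-values of 0.0614 and 0.106. NCOA2 of the cofactor list was not called with the red blood cell (0.18), fibroblast (0.20) or Schwann cell score (0.27), with adjusted p-values of 0.071, 0.0514 and 0.0538.

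Of the inflammatory genes that glucocorticoids repress, 14 of 16 were tested and none was called. IL1B had the smallest p, with a change of -0.35 (SE 0.13, limma adjusted p = 0.0819), IL6 changed by -0.42 (SE 0.16) and TNF by 0.17 (SE 0.09), and 7 genes had each sign. Of the immediate early genes, 10 of 17 were tested and none was called. NR4A2 had the smallest p, at 0.38 (SE 0.19, limma adjusted p = 0.185), whereas FOS and JUN changed by 0.00 (SE 0.30) and 0.02 (SE 0.16), and the list median was 0.07.

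**Figure D5:**
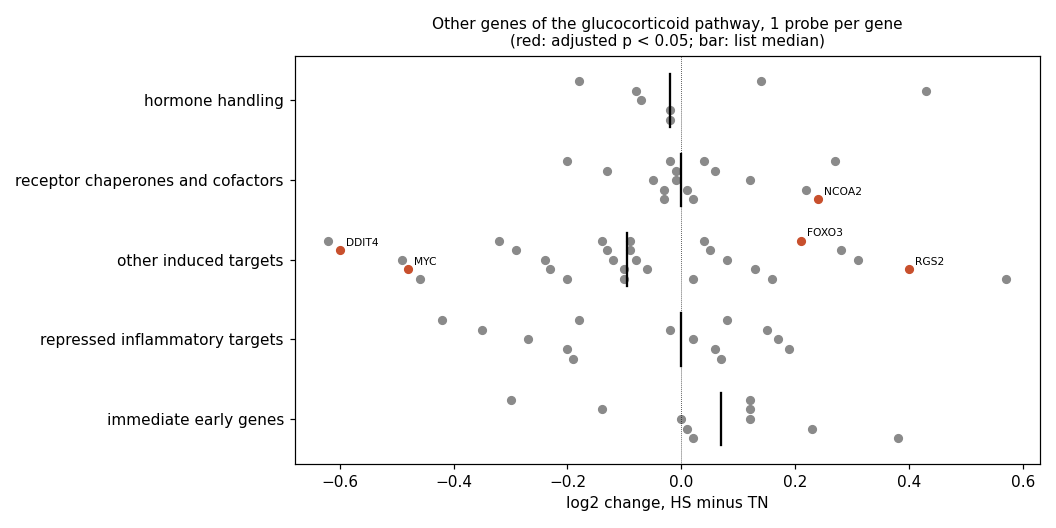
Change from TN to HS (log2, horizontal axis) of the other genes of the pathway, 1 probe per gene, in 5 lists, with the list median as a black bar. Red genes were called (NCOA2, DDIT4, MYC, FOXO3 and RGS2), and the medians lie between -0.10 and 0.07.

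The same lists were read between LW and Creole, where 6.65% of the named genes were called higher in LW and 8.6% lower. Among the other induced targets, HIF3A was higher in LW by 0.78 (SE 0.24, limma adjusted p = 0.029), NFKBIA by 0.44 (SE 0.09, adjusted p = 0.00332) and FOXO1 by 0.34 (SE 0.11, adjusted p = 0.0348), and SESN1 was lower, at -0.34 (SE 0.11, adjusted p = 0.0437), with a list median of 0.17. NFKBIA encodes the inhibitor of NF-κB. Among the chaperones and cofactors PPARGC1A was higher by 0.36 (SE 0.10, adjusted p = 0.0201) and PTGES3 by 0.21 (SE 0.06, adjusted p = 0.013), and STUB1 was lower, at -0.27 (SE 0.06, adjusted p = 0.00776). NR4A1 was the only immediate early gene called, at 0.31 (SE 0.08, adjusted p = 0.0137), and no gene of hormone handling (ABCB1 had the smallest p, adjusted 0.398) or of the inflammatory list (NOS2, -0.30, SE 0.11, adjusted p = 0.0601) was. NR4A1 was not called with 75th percentile scaling (0.18, adjusted p = 0.0818) or with the mean of its probes (0.21, adjusted p = 0.143). NOS2 was called in 4 other settings, with 75th percentile scaling (-0.35), normexp background correction (-0.31), array weights (-0.31) and the mean of its probes (-0.26), at adjusted p-values of 0.0356, 0.0442, 0.0415 and 0.0207, and in 5 of the 26 fits without 1 array.

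The adipocyte score also differed in level between these breeds, from 0.03 to 0.38 in Creole and from -0.33 to 0.05 in LW. With this score as a covariate, HIF3A, NFKBIA, PPARGC1A, STUB1 and NR4A1 were not called in LW minus Creole (adjusted p from 0.232 to 0.733). These fits were not made for FOXO1, SESN1 and PTGES3. The changes of PPARGC1A (0.38) and NFKBIA (0.37) stayed close to those without the score, whereas those of HIF3A (0.34), STUB1 (-0.09) and NR4A1 (0.13) were smaller. The fibroblast score ran from -0.86 to 0.27 in Creole and from -0.16 to 0.54 in LW. With it as a covariate the same 5 genes were not called, at 0.44 for PPARGC1A, 0.37 for NFKBIA, 0.40 for HIF3A, -0.15 for STUB1 and 0.22 for NR4A1 (adjusted p = 0.0534, 0.0721, 0.458, 0.236 and 0.226). The part of cell types in the breed differences was not tested further.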

How the data were processed

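RNA of 26 pigs was hybridised to one-colour Agilent porcine arrays. The authors deposited each array's scanner output, with the median, mean, local background and processed intensity of each spot, none scaled between arrays, and other flags set by Agilent Feature Extraction 10.10.1.1 (submitters' processing notes) for spots above background. They also deposited normalized log2 values of 44104 probes in a series matrix. These differed from the values used here by a median of 0.00793 and served as an alternative.

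As in the methods of the study, median intensities were quantile-normalized over non-control spots without background correction and put on the log2 scale (R 4.3.3, limma 3.58.1). Non-uniform spots were set to missing and spots of 1 probe averaged. From 68.51% to 76.58% of spots per array were well above background. A probe was kept if 8 or more arrays had it well above background (44703 probes). Models were fitted with lmFit and eBayes (intensity trend). HS minus TN had breed as a covariate, the breed contrasts had temperature, and the changes within breeds and the interaction came from 6 group means. Pen, slaughter day and parents, random effects in the methods of the study, are not in the labels. The p-values were adjusted by Benjamini-Hochberg over all tested probes at 0.05. The scripts were tested on simulated data. Quantile normalization sets all arrays to 1 distribution, so a change common to most genes cannot be seen.

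Genes were named from the annotation columns, matched to RefSeq genes of Sscrofa11.1 (9565 of 60306 spots by accession, 14344 by symbol, 207 by synonym, the others unnamed). The methods of the study name the same assembly for the annotation of the array. The representative probe of a gene was the tested probe with the highest mean level. From each list, the 3 called genes with the largest changes in HS minus TN and 2 in LW minus Creole were named, or else that with the smallest p, and further members were named for their role after their values were seen. For a list score, each gene's level was centred on its mean over arrays and the genes were averaged. The genes, lists and tests were chosen with earlier results of these data known. Alternatives covered background correction, scaling, filters, probe averaging, slide as a block, array weights, moderation, marker scores as covariates and leaving out each array. Replicate numbers of the groups only name arrays and pair none.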

Additional observations from a re-analysis of the deposited data

Results flagged for a closer look

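Of 40 groups of 4 or 5 arrays tested (8 genes in 5 groups, brightest probe), 3 held an array far from the others by Dixon's test, where chance gives about 5%. FKBP5 was 9.96 in the third LW HS pig, against 8.65 to 8.98 in the other 4. ZBTB16 was 11.57 in the second F1 TN pig, against 10.58 to 10.72 in the other 3. DUSP1 was 13.10 in the third F1 TN pig, against 13.69 to 13.77 in the other 3. None of these genes was called in HS minus TN with or without these arrays.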

How the results depend on the processing

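The call of SGK1 in HS minus TN held in 16 of 18 other settings (changes from -0.80 to -0.66) and in all 26 fits without 1 array (-0.82 to -0.66). It ended with the fibroblast or the Schwann cell score as a covariate, settings chosen after seeing the data, where 0 members were called. The share of all probes called with these scores was not counted. Members called were 2 with 75th percentile scaling, with normexp background correction and with array weights, 3 with the mean of a gene's probes (NR3C1, KLF9 and SGK1), and 1 to 2 without single arrays (2 without LW HS replicate 3, Creole HS replicate 3, F1 HS replicate 4 or LW TN replicate 4). In F1, 1 member was called with array weights (SGK1, limma adjusted p = 0.0421). The other counts of members stayed at 0. FKBP5 turned to 0.02 with the Schwann cell score. With 75th percentile scaling, 1 marker list passed in place of 3 (the Schwann cell list), and the adrenal cortex score, 0.00 before, was 0.03. Without centring on groups, 9 pairs of members passed in place of 4. Slide as a fixed block left 3 KLF9 probes called, no filter on dim probes 3, the adipocyte score 4, the macrophage score 2, while the change on the brightest KLF9 probe was -0.36, -0.35, -0.40 and -0.33. DDIT4 was not called without the first F1 TN or the second LW TN pig (adjusted p = 0.0514 and 0.0518), nor HIF3A in LW minus Creole in 5 such fits (adjusted p up to 0.0706). ABCB1 in HS minus TN was called with 75th percentile scaling (0.60, adjusted p = 0.0392) and in 3 fits without 1 array, and IL1B in 2 such fits. No paired analysis was possible because the replicate numbers were given in accession order and pair no pigs. The cause of these differences was not tested. The number of arrays limits the precision.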
